A study of Mus musculus with 8 samples.

Results

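Cholesterol and LXR pathway genes were followed through 4 lists of m6A peaks from mouse bone marrow-derived macrophages (BMDMs). The group holds 8 genes chosen by name for their roles, namely the nuclear receptors *Nr1h3*, *Nr1h2* and *Pparg*, the cholesterol exporters *Abca1* and *Abcg1*, and the sterol-sensing regulators *Srebf1*, *Srebf2* and *Insig1*. Each listed peak was given to the protein-coding gene with which it shared the most exon bases on the same strand. All 8 genes were found among the 21866 protein-coding genes of the annotation. At least 1 list held a peak on 6 of the 8 genes, and on 6971 of the 21866 genes.

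m6A is a methyl mark on adenosines of mRNA, written by a complex whose catalytic subunit is METTL3. MeRIP-Seq pulls down RNA fragments with an antibody against m6A and calls a peak where the pull-down holds more reads than the input RNA. The study set BMDMs of mice with *Mettl3* deleted in myeloid cells (KO) beside control BMDMs (WT). There were 2 samples per genotype, with an IP and an input library per sample and thus 8 libraries. The authors deposited 1 peak list per sample, WT-1 and WT-2 for the controls and KO-1 and KO-2 for the deletion. Values of a genotype are given below in the order of these numbers. WT donors were *Mettl3*fl/fl Lyz2+/+ and KO donors *Mettl3*fl/fl Lyz2cre/+, all C57BL/6 mice aged 8 weeks. Both genotypes therefore carried the floxed *Mettl3* alleles, and only KO mice carried Cre, in place of 1 *Lyz2* allele. Lyz2-Cre acts in the myeloid lineage, so that it reaches granulocytes as well as macrophages, and the share of cells with a deletion is not measured by the lists. The paper reports a partial loss of *Mettl3* mRNA in KO BMDMs, and an m6A level of mRNA below that of WT. KO peaks are thus not peaks of cells free of METTL3. Bone marrow cells of both genotypes were grown for 7 days in DMEM with serum and 40 ng/mL M-CSF, and no other treatment is named for these samples. The labels do not say that the samples of a genotype came from separate mice, so the spread given below is that between samples and may be technical.

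Macrophages take up cholesterol with lipoproteins and dead cells and cannot break down its ring. Oxysterols formed from excess cholesterol activate the liver X receptors, LXRα (*Nr1h3*) and LXRβ (*Nr1h2*), which bind DNA with a retinoid X receptor and switch on the exporters ABCA1 and ABCG1. When sterol in the endoplasmic reticulum is low, the SREBP transcription factors encoded by *Srebf1* and *Srebf2* are carried to the Golgi and cut free, and when it is high, INSIG proteins hold them back.

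There were 6159 and 6263 peaks in the WT lists and 6378 and 6684 in the KO lists. Their median width was 478 and 498 bp in the WT lists and 501 and 543 bp in the KO lists. No list held a peak on *Mettl3*, so the deleted gene checks nothing about the labels. A peak carries the score of the authors' peak caller, and the share of peaks at 3100 or above, near the top of the scale, was 10.3% and 13.5% in the WT lists and 16.2% and 19.5% in the KO lists. Scores are therefore given with their percentile, the share of peaks of the same list with an equal or lower score, and were not compared as levels between lists. Peaks tied at 3100 share 1 percentile, of about 99, so that each value of 99 or more given below marks the whole tied share of a list and not a rank within it. The lists hold no read counts, so depth is unknown, and absence of a peak is not absence of m6A. Fewer reads of a transcript and fewer m6A marks on it cannot be told apart. Peaks were cut at exon edges in many places, with an end of 42.2% of WT-1 peaks and 50.8% of KO-2 peaks on such an edge.

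The 8 genes held 6 and 6 peaks in the WT lists and 3 and 5 in the KO lists, or 6 ± 0 per WT list and 4 ± 1.41 per KO list (mean ± SD, n = 2). These peaks covered 4232 and 3927 bases in the WT lists and 1745 and 2684 in the KO lists. Both KO lists thus lay below both WT lists in peaks and in covered bases, while all coding genes together held 5876 and 6027 peaks in the WT lists and 6049 and 6358 in the KO lists. *Abca1* and *Abcg1* had a peak in all 4 lists (2 of the 6 genes with a peak), beside 30.5% of all genes with a peak (2125 of 6971). *Srebf2* was WT-only, with a peak in WT-1 and WT-2 but not in KO-1 or KO-2 (1 of 6), beside 3.97% of all genes (277 of 6971). None of the 8 genes was KO-only, the reverse (0 of 6), beside 4.89% of all genes (341 of 6971). *Nr1h3*, *Pparg* and *Srebf1* had a peak in 1 list only (3 of 6), beside 32.1% of all genes (2235 of 6971), and *Nr1h2* and *Insig1* had none. In number of peaks, both KO lists lay below both WT lists for *Abca1* and *Srebf2* (2 of 6), beside 5.55% of all genes, and above them for none of the 8 genes, beside 7.99% of all genes. In covered bases, both KO lists lay below both WT lists for *Abca1*, *Abcg1* and *Srebf2* (3 of 6), beside 8.59% of all genes, and above them for none, beside 18.9% of all genes. Among the upper 50% of peaks by score, *Abca1* alone of these genes had a peak in all 4 lists and none was WT-only. The shares of all genes with these patterns were not counted in those shorter lists, so these counts stand without a background. The difference of -2 peaks per list on the 8 genes became -1 without KO-1 and -3 without KO-2. Without WT-1 *Nr1h3* also became WT-only (2 genes), beside 15.7% of all genes with a peak in the other lists, and without KO-1 *Pparg* and *Srebf1* became KO-only (2 genes), beside 13.4%. Differences per gene were put to an exact permutation test, two-sided, with 6 ways to label the lists. The smallest p that this exact test can give is 0.333, so it can call no gene.

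All 20 peaks on these genes lay in the exon that holds the stop codon. The stop codon was inside 10 of them, the other 10 lay wholly in the 3′-UTR, and 0 touched a 5′-UTR. These 20 peaks count a site once for each list that holds it and fall into 8 regions. Widths ran from 304 to 1154 bp with a median of 685 bp, and score percentiles from 2.92% to 99.4% with a median of 62.1%. Over all genes, peaks with the stop codon inside made up 34.1% and 37.8% of those placed on a transcript in the WT lists and 33.8% and 36.9% in the KO lists. Peaks within the exon of the stop codon made up 64.0% and 66.7% in the WT lists and 58.9% and 61.2% in the KO lists, those wholly in the 3′-UTR 22.9% and 22.7% against 17.5% and 18.5%, and those that touched a 5′-UTR 9.25% and 9.01% against 11.7% and 11.3%. Each peak was placed on the transcript with the longest coding sequence, and positions below count from the last base of the stop codon, negative upstream of it.

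**Figure D1:**
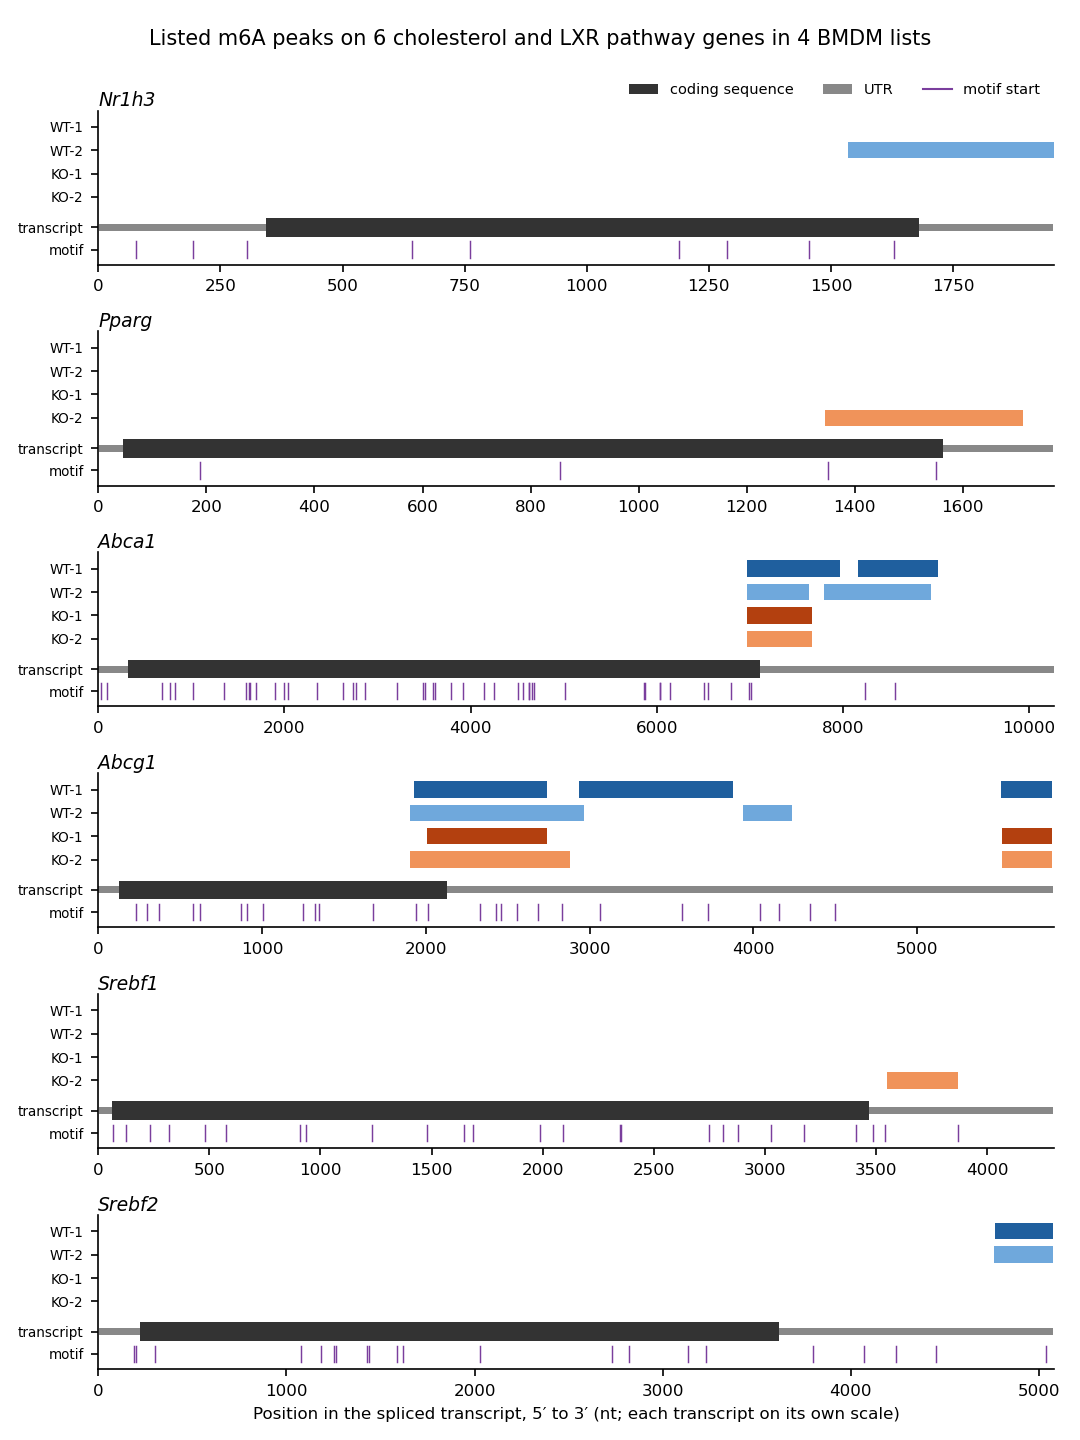
Listed m6A peaks (coloured bars) of the WT and KO lists on the spliced transcripts of the 6 genes with a peak, drawn to scale in nt from 5′ to 3′ with each transcript on its own axis. Thick grey bars are coding sequence, thin bars UTRs and purple ticks the starts of GGAC. All 20 peaks lie in the exon of the stop codon, and the more distal bars on *Abca1* and those on *Srebf2* appear in the WT lists only.

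*Nr1h3* encodes LXRα, the LXR that macrophages and liver hold in high amounts. It lies on the minus strand at chr2:91184061-91202834 (GRCm38) and had 0 and 1 peaks in the WT lists and 0 and 0 in the KO lists. The WT-2 peak, chr2:91184061-91184482, was 422 bp wide and filled the whole of exon 10, the last exon, with 147 bases of coding sequence and all 275 bases of the 3′-UTR. Its score was 1261.71, at percentile 67.1. The WT lists did not share the peak, so the genotypes overlapped (difference in peaks of -0.5, exact permutation test, p = 1).

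*Nr1h2*, which encodes the more widely expressed LXRβ (minus strand, chr7:44549616-44553951), had no peak in any list. Its transcript was no poorer in the core of the m6A consensus, GGAC, with 11 copies in 1999 nt or 5.50 per kb, beside 9 copies or 4.60 per kb in *Nr1h3* and 4.09 per kb over all coding transcripts. Both receptors hold a GGAC at position -51, near the end of the coding sequence. The windows below, from the RefSeq genome sequence of GRCm38, show these copies in capitals, since this position lay inside a peak in WT-2 for *Nr1h3* and in no peak for *Nr1h2*.
*Nr1h3*, chr2:91184374-91184397, minus strand: ttcgcctgcaGGACaaaaagcttc
*Nr1h2*, chr7:44550023-44550046, minus strand: tgcgactccaGGACaagaagctgc

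*Pparg* encodes PPARγ, a fatty acid sensor that acts upstream of *Nr1h3* and of lipid uptake in macrophages. It lies on the plus strand at chr6:115360951-115490399 and had 0 and 0 peaks in the WT lists and 0 and 1 in the KO lists. The KO-2 peak, chr6:115489976-115490342, was 367 bp wide, held the stop codon and had a score of 302.59, at percentile 25.1. The peak was thus among the lower-scored ones of its list and was not shared by KO-1. It held a GGAC at position -12, shown in capitals within chr6:115490173-115490196 because it lies closest to the stop codon of all copies in the peaks of the 3 receptors: agatctacaaGGACttgtattagc. None of the 3 receptor genes had a peak in more than 1 list.

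*Abca1* encodes the transporter that loads cholesterol and phospholipid onto lipid-poor apolipoprotein A-I. It lies on the minus strand at chr4:53030787-53159895, with 50 exons and a transcript of 10262 nt, of which 3156 nt are 3′-UTR. It had 2 and 2 peaks in the WT lists and 1 and 1 in the KO lists, and both WT lists lay above both KO lists (exact permutation test, p = 0.333, n = 2 per genotype). The peaks covered 1865 and 1820 bases in the WT lists and 704 and 704 in the KO lists, that is 1842.5 ± 31.8 in WT and 704 ± 0 in KO (SD, n = 2). The difference of -1138.5 bases was larger than the spread between samples, at the smallest p that the design allows (exact permutation test, p = 0.333).

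The peak over the stop codon of *Abca1* was in all 4 lists. It ran over chr4:53033077-53034083 in WT-1, chr4:53033418-53034083 in WT-2 and chr4:53033380-53034083, with the same ends to the base, in KO-1 and in KO-2. In each list it began at the first base of exon 50, at position -140, where an exon edge cut it. Its score was 1764.12 in WT-1 (percentile 82.0) and 3100 in WT-2 (99.1), KO-1 (99.4) and KO-2 (99.3). The peak was thus tied with the other peaks at 3100 in WT-2 and both KO lists, where its rank cannot be read, and 666 bp of it were shared by all 4 lists.

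The other peak lay farther into the 3′-UTR and was in the WT lists only. It ran over chr4:53032032-53032889 in WT-1 (858 bp, score 1807.07, percentile 82.4) and chr4:53032105-53033258 in WT-2 (1154 bp, score 2294.17, percentile 80.6). The stretch that both WT peaks covered and both KO lists lacked was 785 bp long, chr4:53032105-53032889, from position 1054, and 967 bases of *Abca1* in all were WT-only. No base was KO-only. Of the 2125 genes with a peak in all 4 lists, 156, or 7.34%, had a WT-only stretch of at least 300 bp, and 412, or 19.4%, had a KO-only one. The length of 300 bp is that of the narrowest listed peak, and this measure was chosen after the *Abca1* peaks were seen. Peaks that overlapped by at least 1 bp chained all 6 *Abca1* peaks into 1 region, and with a reciprocal overlap of 50% the distal peak became a WT-only region of its own, as were 3.33% of 13537 regions over all genes, while 6.63% of them were KO-only.

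The GGAC copies of *Abca1* fell on both sides of this split. The transcript holds 47 copies, 43 of them in coding sequence and 2 in the 3′-UTR, and 4 lay in a peak. The stretch shared by all 4 lists held 2 copies, both in coding sequence, and the stretch of the WT lists held both copies of the 3′-UTR. They are shown with 10 bases on each side and GGAC in capitals, the first pair inside peaks of all 4 lists and the second pair inside peaks of WT-1 and WT-2 only.
Position -120, CDS, chr4:53034050-53034073, minus strand: actttgccaaGGACcaaagtgatg
Position -93, CDS, chr4:53034023-53034046, minus strand: accacttaaaGGACctgtcactgc
Position 1127, 3′-UTR, chr4:53032803-53032826, minus strand: gaatgtgcccGGACtgcctcatgc
Position 1454, 3′-UTR, chr4:53032476-53032499, minus strand: aagccaagaaGGACcactaagtaa

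**Figure D2:**
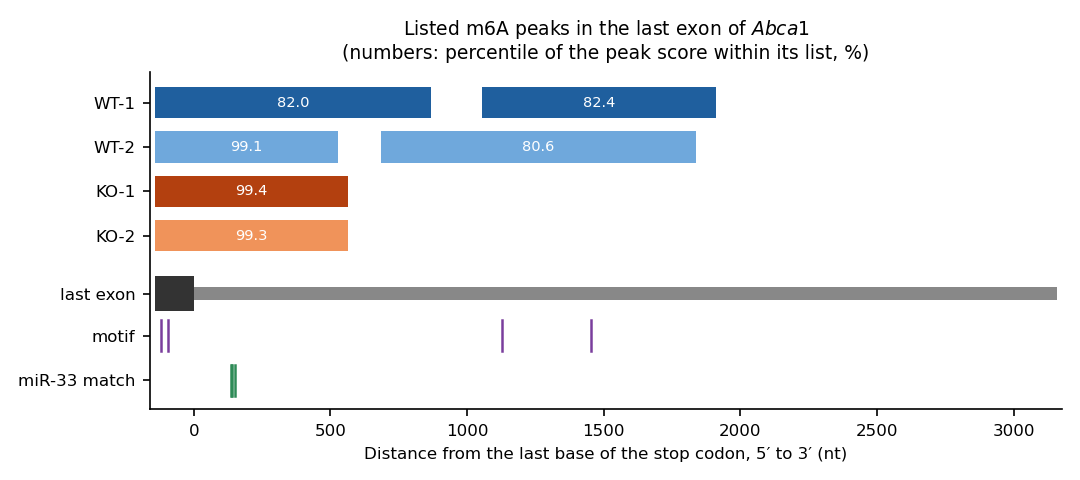
Listed m6A peaks in the last exon of *Abca1*, with the distance from the last base of the stop codon in nt on the x axis and the 4 lists as rows. The number in a bar is the score percentile of that peak within its list (99 and above for peaks tied at 3100), purple ticks mark GGAC and green ticks the miR-33 seed matches. The bars over the stop codon appear in all 4 lists, and the bars that cover position 1054 onwards in WT-1 and WT-2 only.

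*Abcg1* encodes the transporter that passes cholesterol on to mature high-density lipoprotein. It lies on the plus strand at chr17:31057675-31117988, with 15 exons, a transcript of 5832 nt and a 3′-UTR of 3703 nt, against a median 3′-UTR of 726 nt over all coding genes. It had 3 peaks in WT-1 and 2 in each of the other lists, so the genotypes overlapped in number of peaks. The peaks covered 2060 and 1371 bases in the WT lists and 1041 and 1291 in the KO lists. Covered bases did not overlap between genotypes, with 1715.5 ± 487 in WT and 1166 ± 177 in KO (SD, n = 2; exact permutation test, p = 0.333). The difference of -549.5 bases was close to the SD of the WT lists, and the lowest WT list lay only just above the highest KO list.

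The stop codon peak of *Abcg1* was in all 4 lists, at chr17:31114085-31114894 in WT-1, chr17:31114057-31115123 in WT-2, chr17:31114161-31114894 in KO-1 and chr17:31114057-31115036 in KO-2. Its score percentile was 38.1 and 51.5 in the WT lists and 47.8 and 39.5 in the KO lists, below that of the *Abca1* stop codon peak in every list. All 4 lists shared 734 bp, which held 6 copies of GGAC.

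Between this peak and the transcript end the WT lists differed from each other. WT-1 had a peak at chr17:31115091-31116028 with a score of 77.63 (percentile 2.92), and WT-2 had 1 at chr17:31116090-31116393 with a score of 2083.33 (percentile 78.5). These peaks did not overlap, and neither KO list had a peak in their place. Only 33 bases of *Abcg1* were WT-only, against 967 for *Abca1*.

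The last peak of *Abcg1* ended 7 nt before the transcript end in both KO lists and WT-1, from chr17:31117675 in KO-1, chr17:31117671 in KO-2 and chr17:31117670 in WT-1 to chr17:31117981. Its percentile was 33.2 in WT-1, 64.5 in KO-1 and 59.8 in KO-2, and WT-2 had no peak there. It held no GGAC. Peaks that end within 10 nt of the transcript end made up 11.2% and 11.0% of the placed peaks in the WT lists and 8.65% and 11.4% in the KO lists.

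*Srebf1* encodes the SREBP that mainly drives fatty acid synthesis and is itself an LXR target. It lies on the minus strand at chr11:60199089-60222581 and had a peak in KO-2 only, at chr11:60199519-60199840 in the 3′-UTR from position 82. The peak was 322 bp wide, had a score of 3100 (percentile 99.3) and held no GGAC, although the transcript holds 25 copies, 5.82 per kb. Its score is the tied value near the top of the scale, which 19.5% of KO-2 peaks reached or passed.

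*Srebf2* encodes the SREBP that drives cholesterol synthesis and LDL receptor expression. It lies on the plus strand at chr15:82147181-82205379 and had 1 and 1 peaks in the WT lists and 0 and 0 in the KO lists (1 ± 0 in WT and 0 ± 0 in KO, SD, n = 2, exact permutation test, p = 0.333). The WT-1 peak lay at chr15:82205070-82205376 (score 393.7, percentile 41.9) and the WT-2 peak at chr15:82205063-82205376 (score 486.56, percentile 38.5). Both ended 3 nt before the end of the transcript, far from the stop codon (from positions 1153 and 1146), and shared 307 bp. Neither belonged to the upper 50% of its list by score, and with those upper peaks alone *Srebf2* had no peak in any list. The shared stretch held 1 GGAC, shown in capitals within chr15:82205330-82205353 (accatgtgctGGACgtaggttttc) as the only copy of the 3 sterol-sensing genes that lay in a peak.

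*Insig1* encodes a protein that holds the SREBP escort SCAP in the endoplasmic reticulum. It lies on the plus strand at chr5:28071363-28078662 and had no peak in any list, although its 3′-UTR of 1842 nt holds 9 of its 12 copies of GGAC. Over the 8 genes, 21 of 156 copies of GGAC lay in a peak of at least 1 list, 8 in peaks of all 4 lists, 3 were WT-only and 0 were KO-only. Of the 277058 copies in all coding transcripts, 12.2% lay in a peak of at least 1 list, 2.83% in peaks of all 4 lists, 0.402% were WT-only and 0.909% were KO-only. Most copies lay outside any listed peak, in these transcripts as in all.

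Overlapping peaks merged into 8 regions on these genes, of which 2 were covered by a peak in all 4 lists, beside 18.5% of 11649 regions on coding genes. GGAC was found in 6 of the 8 regions (75.0%, Wilson 95% interval 40.9% to 92.9%, counting error only) and in 85.2% of all regions. Its density was 3.46 per kb in the regions of these genes and 4.54 per kb in all regions. GGACT was found in 4 of the 8 regions and in 52.2% of all regions, at 0.824 and 1.32 per kb. The midpoint lay within 200 nt of the stop codon for 2 of 8 regions (25.0%) and for 21.5% of the 10408 regions that could be placed on a transcript. With 8 regions, these shares do not show whether the group is like or unlike all genes.

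*Srebf2* also hosts miR-33, which represses *Abca1* as part of the same circuit. The mature miR-33-5p of RefSeq (GRCm38.p6, chr15:82198127-82198147, plus strand) is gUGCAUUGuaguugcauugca, with the seed, bases 2 to 8, in capitals. This arm and the other mature arm, miR-33-3p, lie in the intron between exons 16 and 17, and no listed peak touched either. From 94.8% (KO-1) to 96.2% (WT-2) of the peaks of a list lay on exons of coding genes. Absence of a peak in an intron therefore does not show whether the miR-33 precursor carries m6A. The seed match CAATGCA, searched on the transcript strand after the data were seen, occurs at positions 135, 140 and 150 of the *Abca1* 3′-UTR, all inside the stop codon peak of all 4 lists. In *Abcg1* it occurs at positions 717 and 727, inside the stop codon peaks of WT-2 and KO-2 and past those of WT-1 and KO-1. Over all coding genes 6.11% of 21853 3′-UTRs hold the match (1336 genes), and in 158 of these genes, or 11.8%, a match lay in a peak of at least 1 list. In 26 of the 158 a match lay in peaks of all 4 lists. The stretches are shown with the matches in capitals, 3 overlapping or adjacent ones in *Abca1* and 2 in *Abcg1*, and a match of letters is not a measured binding site.
*Abca1*, chr4:53033783-53033812, minus strand: tattCAATGCAATGCActtCAATGCAacga
*Abcg1*, chr17:31114996-31115024, plus strand: gcaacgCAATGCAacgCAATGCAgacagt

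Pairs of lists were compared on these exporters by the Jaccard index, the bases covered in both lists over those covered in either. For *Abca1* it was 0.796 between the WT lists, 1 between the KO lists and 0.358 to 0.377 for the 4 mixed pairs. On this gene the lists of a genotype thus resembled each other more than those of different genotypes. The index rests on the same peaks as the WT-only bases given above and adds no separate evidence. The share of all genes with this order was not counted, so the order stands without a background. For *Abcg1* it was 0.326 between the WT lists, 0.806 between the KO lists and 0.437 to 0.583 for the mixed pairs, so the WT lists were the least alike. Over all peaks the index was 0.357 between the WT lists, 0.517 between the KO lists and 0.369 to 0.392 for the mixed pairs. There too the WT lists were the least alike, unlike on *Abca1*.

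By the score percentile of the best peak in each of the 4 lists, with 0 for no peak, the genes nearest to *Abca1* were *Topors* at a Euclidean distance of 0.162 percentile points and *Slx4ip* at 0.276. In WT-2 and both KO lists the best peaks of these 3 genes are tied at 3100, so the distances rest on WT-1 alone and are small for this reason. *Topors* also had 2 and 2 peaks in the WT lists and 1 and 1 in the KO lists. Those nearest to *Abcg1* were *Ehmt1* at 10.7 and *Narfl* at 11.4 percentile points, where no list is tied at 3100, so the distances of the exporters cannot be compared.

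A list of 70 other genes of cholesterol and LXR biology held 47 genes with a peak. Of these 47 genes, 13 (27.7%) had a peak in all 4 lists, while 3 (6.38%) were WT-only and 0 were KO-only, beside 30.5%, 3.97% and 4.89% of all genes with a peak. Together they held 46 and 46 peaks in the WT lists and 39 and 35 in the KO lists, a mean of 46 ± 0 in WT and 37 ± 2.83 in KO (SD, n = 2). Both KO lists lay below both WT lists here too, and as a share of all peaks on coding genes the numbers were 0.783% and 0.763% in the WT lists and 0.645% and 0.550% in the KO lists. Covered bases are not given for these genes. A wide peak in place of separate narrower ones lowers the number of peaks, as for *Nrip1* below. In 5 of the 47 genes (10.6%) both KO lists held fewer peaks than both WT lists, and in 1 (2.13%) they held more, beside the 5.55% and 7.99% of all genes. These counts have no test, since the genes of the list were chosen with earlier results known. With each list left out in turn they ranged from 9 to 12 genes with fewer peaks, from 1 to 5 genes with more peaks and from 5 to 8 WT-only genes (8 without WT-1, 7 without WT-2 or KO-1, 5 without KO-2), since 1 list then sufficed for a genotype. These are counts among fewer genes with a peak, namely 43 without WT-1, 42 without WT-2, 43 without KO-1 and 44 without KO-2. Of all genes with a peak in the lists kept, 15.7% were WT-only without WT-1, 13.6% without WT-2, 7.23% without KO-1 and 7.73% without KO-2, from 9.91% to 22.6% had fewer peaks in KO and from 15.7% to 21.6% had more. Among the upper 50% of peaks by score 3 genes had fewer peaks in KO, 1 gene had more and 1 gene was WT-only. Over all genes, 442 in place of 944 then had KO lists wholly above or below the WT lists. Shares of all genes with each pattern were not counted in those shorter lists. The shares of the full lists given above do not apply to them.

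Of the 9 partners and coregulators of the receptors with a peak, 5 had a peak in all 4 lists. Counts by role, here and below, rest on 4 to 11 genes with a peak, were not tested, and stand beside the shares of all genes given above. *Ncor1*, a corepressor that LXRs recruit when no ligand is bound, had 2 and 2 peaks in the WT lists and 4 and 4 in the KO lists and was the 1 gene of the list with more peaks in both KO lists. The additional KO peaks lay in internal coding sequence, at chr11:62343027-62343351 and chr11:62333663-62334156 in KO-1 and at chr11:62343007-62343351 and chr11:62333663-62334156 in KO-2. *Nrip1*, a coregulator of nuclear receptors, had 4 and 3 peaks in the WT lists and 2 and 2 in the KO lists. The fewer KO peaks included 1 of 2888 bp in KO-1 and 1 of 3038 bp in KO-2, each across a span where the WT lists had separate, narrower peaks.

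Among 10 LXR targets, 5 had a peak, and 2 of these were WT-only, beside 3.97% of all genes with a peak. *Scd2*, a fatty acid desaturase, had 1 peak over the stop codon in WT-1 (chr19:44303001-44303360, percentile 8.91) and in WT-2 (chr19:44303061-44303520, percentile 11.5). *Acaca*, which makes malonyl-CoA for fatty acid synthesis, had 2 peaks in WT-1 and 1 in WT-2, of which those at chr11:84400750-84401651 (percentile 64.3) and chr11:84401308-84401651 (percentile 28.1) shared the end of the transcript. *Arl4c*, a small GTPase, was the target in all 4 lists, with peaks of 1971 and 1641 bp in the WT lists and 1889 and 1952 bp in the KO lists, all at a score of 3100. *Apoe*, *Scd1*, *Fasn*, *Abcg4* and *Plin2* had no peak in any list.

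Each of the 10 genes of SREBP processing and sterol sensing had a peak in at least 1 list, and 3 of them in all 4. *Rnf139*, a sterol-responsive ubiquitin ligase of the endoplasmic reticulum, had 1 peak over the stop codon in each list, 2233 and 1780 bp wide in the WT lists and 1947 and 2577 bp in the KO lists. *Mbtps1*, the first protease to cut the SREBPs, had a 5′ peak in each list that began at the same exon edge, chr8:119547885 on the minus strand, with percentiles of 56.5, 39.9, 52.8 and 71.9.

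In sterol synthesis 11 of the 18 genes on the list had a peak. *Lss*, which closes the sterol ring, had a 3′-UTR peak in WT-1 (chr10:76553096-76553457, percentile 62.9) and WT-2 (chr10:76553081-76553902, percentile 51.4) and none in the KO lists.

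For lipoprotein uptake, 4 of 8 genes had a peak and 2 had a peak in all 4 lists. *Msr1*, the class A scavenger receptor, had the same coding peak to the base, chr8:39623926-39624335, in all 4 lists. Its further peak, at chr8:39603781-39605982 in WT-1 and chr8:39604653-39605031 in WT-2, lay in an exon of another of its transcripts and had no counterpart in KO-1 or KO-2. *Lrp1*, an endocytic receptor, had 2 and 3 peaks in the WT lists and 3 and 3 in the KO lists, and 1 of them in each list lay in the first exon.

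In intracellular handling 8 of 13 genes had a peak and 2 had a peak in all 4 lists. *Nceh1*, a hydrolase of cholesteryl esters, had 2 peaks in WT-1, WT-2 and KO-2 and 1 in KO-1, the proximal ones beginning at chr3:27241201 in each list. *Osbp*, an oxysterol-binding exchanger, had 1 peak over the stop codon in each list, from chr19:11991900, with percentiles of 77.0, 42.5, 79.2 and 99.3.

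**Figure D3:**
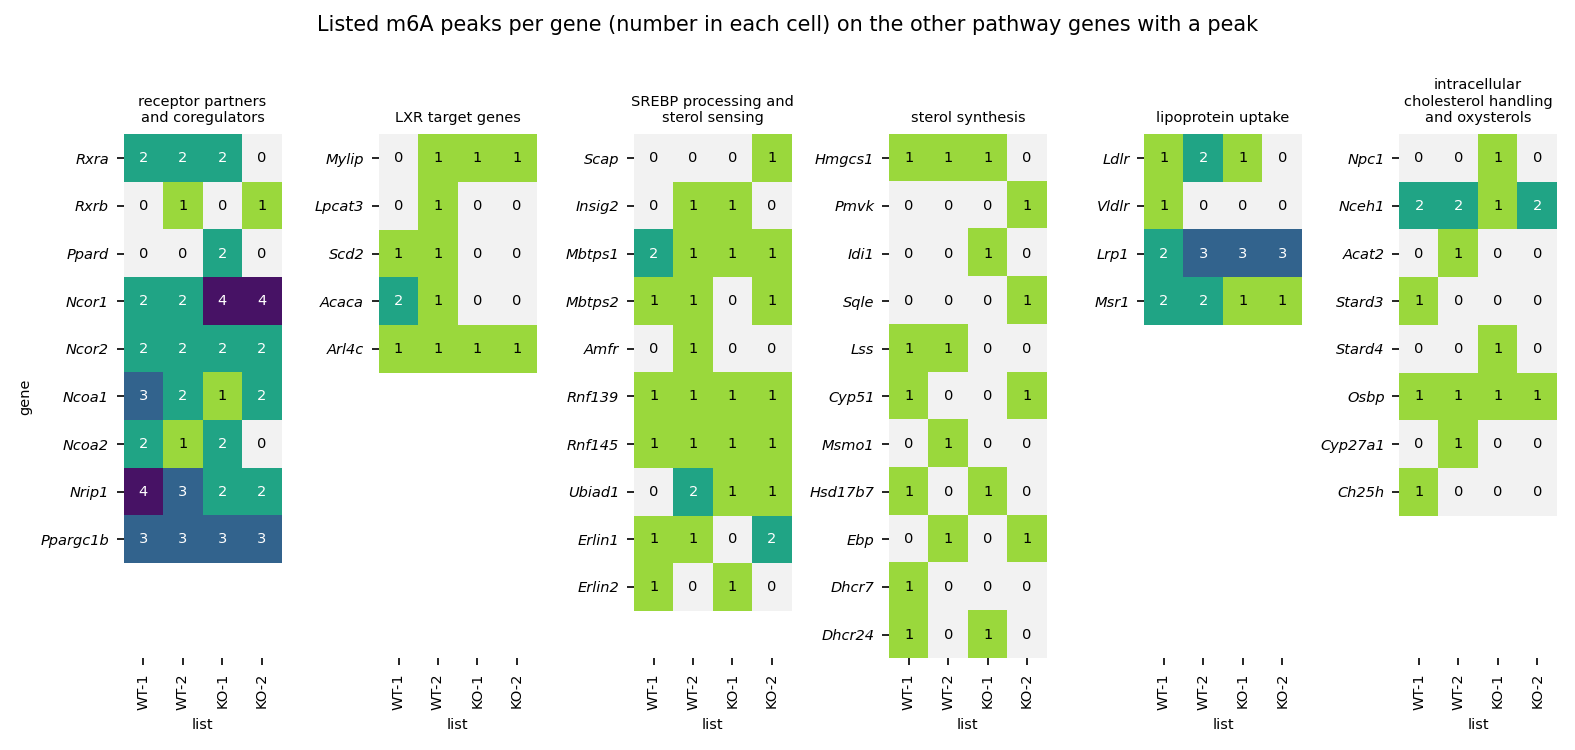
Number of listed m6A peaks (in each cell) on the 47 other pathway genes with a peak, with genes as rows grouped by role and the 4 lists as columns. *Scd2*, *Acaca* and *Lss* have peaks in both WT lists and 0 in both KO lists, and none of these 47 genes shows the reverse.

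Of 8 macrophage markers, 3 had a peak, *Mertk* with 1 in each list, *Fcgr1* with 1 in WT-1 and 2 in WT-2, and *Cd14* with 1 in WT-2. *Csf1r*, *Adgre1*, *Cd68*, *Itgam* and *Lyz2* had none. Of 28 markers of other cell types, 6 had a peak and 0 had a peak in all 4 lists. Of these 6, the T cell marker *Cd4* was WT-only, as was *Fcgr1* among the macrophage markers. *Lck* had a peak in WT-1 only and *Siglech* and *Col1a1* in KO-1 only. *Pax5* had a peak in WT-1 and KO-1, and *Pdgfra* in WT-1 and both KO lists. Of all 21866 genes, 6971 had a peak, and 3.97% of these were WT-only. Peak lists do not measure expression, so these counts do not check the cell type, and the part of cell composition or of read depth in the differences given here was not tested. With the 6159 highest-scored peaks of each list, so that all lists were equally long, 2 of the 8 genes again had a peak in all 4 lists, 1 was WT-only and 0 were KO-only, and 3 of the other pathway genes were WT-only. The shares of all genes with these patterns were not counted in the equally long lists, so the counts have no background there.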

How the data were processed

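RNA of WT and KO BMDMs was analysed by MeRIP-Seq, with 2 samples per genotype. The authors called peaks per sample and deposited 1 list each, with a peak caller score for every peak. Per the submitters' processing notes, cutadapt 1.9.3, HISAT2 2.0.4 and the build mm10 (GRCm38) were used. Peak names have the form of MACS, whose settings are not given in the sources used here. Libraries were made with a strand-specific kit.

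Peaks were assigned by same-strand exon overlap of at least 1 bp with protein-coding transcripts of GENCODE M21, and sequence was read from the RefSeq genome of GRCm38. Groups were taken from the labels. The members and lists were chosen with earlier results of these data known. Named genes were all 8 members, *Mettl3*, and, from the list of other pathway genes, every one with a peak in both lists of a genotype and neither of the other. All 8 macrophage markers were named. Up to 2 genes per role with a peak in all 4 lists, those with the highest lowest percentile, and the 2 genes nearest to *Abca1* and to *Abcg1* were added. One further gene of the pathway was taken off the list after the analysis for a reason unrelated to its values, is not reported here, and is not in the counts of the other pathway genes. *Apoe*, *Scd1*, *Fasn*, *Abcg4*, *Plin2* and the markers *Cd4*, *Lck*, *Pax5*, *Siglech*, *Col1a1* and *Pdgfra* were named after their values were seen. Numbers of peaks and covered bases were compared by the two-sided exact permutation test. Alternatives were the top 50% of peaks by score, the 6159 highest-scored peaks of each list, every overlapped gene, other overlaps, windows and transcripts, a replicate block and each list left out in turn. Functions were tested on simulated data. Python 3.11.15, numpy 2.4.6, scipy 1.17.1 and matplotlib 3.10.9 were used.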

Additional observations from a re-analysis of the deposited data

How the results depend on the processing

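With 2 samples per genotype and no read counts, the lists limit what can be seen to presence, position and width of a peak. Of the alternative values for counts, differences and shares over these genes, the other pathway genes and all genes, 54 stayed within a limit and 26 moved past it. The limit was 1.5 times for a count, 1 SD between samples for a difference and the 95% interval for a share, so that some values inside it changed a good deal. The difference of -2 peaks on the 8 genes became -1 in lists restricted to the upper 50% of scores and without KO replicate 1, and -3 without KO replicate 2. For single genes 47 differences between KO and WT stayed within 1 SD and 1 passed it, that of *Srebf2*, which was 0 with the upper 50% of scores. Those of *Pparg* and *Abcg1* were 0 there too, from 0.5 and -0.5. With 1 list left out, *Nr1h3* and *Abcg1* ranged from -1 to 0 and *Pparg* and *Srebf1* from 0 to 1.

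In these restricted lists, which are shorter by construction, 1 of the 8 genes had a peak in all 4 lists, 0 were WT-only, and 1 region was in all 4 lists. Shares of all genes and regions with these patterns were not counted in the restricted lists, so the counts stand without a background. Of the other pathway genes, 1 was then WT-only and 3 had fewer peaks in both KO lists, and over all genes 442 in place of 944 had KO lists wholly above or below the WT lists. With the 6159 highest-scored peaks of each list, the counts for the 8 genes and the other pathway genes were as given, and 861 genes differed over all genes. With a midpoint within 400 nt of the stop codon in place of 200, the share of regions was 37.5% in place of 25.0%. With the central 200 bp of each region, 37.5% of the regions held GGAC, in place of 75.0% with whole regions, which are longer. Shares of all regions with these other windows are not given, so both values stand without a background.

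Leaving out 1 list at a time means that a genotype is judged by 1 list. The 8 genes then held from 1 to 2 WT-only genes (2 without WT replicate 1) and from 0 to 2 KO-only genes (2 without KO replicate 1), beside 7.23% to 15.7% and 10.9% to 13.4% of all genes with a peak in the lists kept. Of the other pathway genes, from 5 to 8 were WT-only (8 without WT replicate 1, 7 without WT replicate 2 and without KO replicate 1, 5 without KO replicate 2), between 9 and 12 had fewer peaks in KO and between 1 and 5 had more. These counts are among 42 to 44 pathway genes with a peak in the lists kept. Of all genes with a peak there, 9.91% to 22.6% had fewer peaks in KO and 15.7% to 21.6% had more. Over all genes between 1900 and 2498 had lists of a genotype wholly above or below the other. The longest *Abca1* stretch in WT lists only ranged from 785 to 1154 bp. The alternatives for this stretch and for the other pathway genes were chosen after seeing the data.

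The labels give both genotypes the replicate numbers 1 and 2 but do not say that a number marks a shared litter, batch or day. The study describes its controls as Cre-negative littermates housed with the KO mice, without saying which samples share a litter, and the names of the lists carry close numbers within each same-numbered pair. Across 6971 genes, which are not independent, replicate differences of WT and KO correlated at -0.0106. With a replicate block, 2 of the 8 genes had a peak in WT and none in the same-numbered KO list without the reverse in the other pair, and 2 the opposite, since presence in 1 pair then sufficed. The share of all genes under this rule was not counted, so these counts stand without a background. The same-numbered differences in peaks on the 8 genes were -3 and -1, with a mean of -2 as without the block. Over all genes 1097 differed the same way in both pairs. The block gives no value for peaks in all 4 lists or for regions.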
